A study of Homo sapiens with 24 samples.

Results

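The 10 genes followed here mark where a carcinoma cell lies between an epithelial and a mesenchymal state. They were taken by name as rows of a table of 59609 genes: VIM, FN1, CDH2, ZEB1, SNAI1, SNAI2 and TWIST1 on the mesenchymal side, and CDH1, ESRP1 and EPCAM on the epithelial side. All 10 names were present in the table. RNA was measured by 3′ RNA-seq, in which each transcript is read at its 3′ end, in 24 libraries. They came from MDA-MB-231 and from MDA-MB-453, human breast carcinoma lines without the oestrogen receptor, which are both labelled wild-type. Each line received DMSO, the CDK4/6 inhibitor abemaciclib at 500 nM, the oestrogen receptor degrader fulvestrant at 5 nM, or both drugs, for 5 days, with 3 replicates in each of the 8 groups. MDA-MB-231 cells were grown in RPMI-1640 and MDA-MB-453 cells in DMEM, so a difference between the lines and a difference between the media cannot be told apart. The study exposed cells to these drugs to ask how activated Rb alters transcription. Lines without the oestrogen receptor served there to assess the part of receptor signalling in the response. The comparisons below ask what state each line was in under DMSO, and whether either drug or both moved these genes.

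As background, epithelial cells are held together by E-cadherin and are polarised, whereas mesenchymal cells carry vimentin filaments, deposit fibronectin and move singly. The switch between them is driven by a small set of transcription factors of the ZEB, SNAIL and TWIST families, which bind E-box sequences and repress epithelial genes. ZEB1 and the miR-200 family of microRNAs repress each other, which helps to hold a cell in either state. ESRP1 acts at another level, as a splicing regulator that maintains epithelial isoforms.

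Sequences linked to this mutual repression are shown first because ZEB1 and the host transcript of miR-200c and miR-141 were found in opposite lines. Levels of the mature miRNAs are not part of these data, and the action of the sites was not tested. The 5 mature miRNAs, from RefSeq (GRCh38.p14), fall into 2 seed groups that differ at a single seed base. Capitals mark the seed, bases 2 to 8 from the 5′ end.
hsa-miR-200b-3p: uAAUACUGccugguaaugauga
hsa-miR-200c-3p: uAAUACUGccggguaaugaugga
hsa-miR-429: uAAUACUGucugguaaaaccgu
hsa-miR-200a-3p: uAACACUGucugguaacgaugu
hsa-miR-141-3p: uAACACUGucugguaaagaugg

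The DNA letters complementary to these seeds are CAGTATT for the first 3 miRNAs and CAGTGTT for the other two. The 3′ untranslated region of the ZEB1 reference transcript, 2540 bases in GENCODE v44, held 6 copies of CAGTATT and 3 of CAGTGTT, 9 in all, searched on the transcript strand. Among the rest of the 10 genes, FN1 held 2 copies of CAGTATT in this region, SNAI2 held 1, and ESRP1 held 1 of each motif. Of 2332 such regions of a length within 20% of that of ZEB1, 46.4% held at least 1 copy. Only 1, that of ZEB1 itself, held 9 or more. The first and last copy of each motif are shown, with the match in capitals, on the plus strand of chromosome 10 (hg38). The 7 bases of the match lie at chr10:31527633-31527639, chr10:31529228-31529234, chr10:31528046-31528052 and chr10:31529037-31529043, in that order.
ZEB1 CAGTATT first: atcttatCAGTATTatcactc
ZEB1 CAGTATT last: tcattatCAGTATTttctttg
ZEB1 CAGTGTT first: tcagaatCAGTGTTtgtgatt
ZEB1 CAGTGTT last: ctataaaCAGTGTTgggaaca

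MIR200CHG, the transcript that hosts miR-200c and miR-141, is on the plus strand at chr12:6963226-6964447. The 250 bases before its RefSeq start, chr12:6962995-6963244, hold 1 copy of the E-box CAGGTG, read as CACCTG on this strand and shown in capitals. This motif or its reverse complement is present in 17.5% of the 35116 RefSeq windows of the same length, so a match describes the letters and is not by itself a binding site.
MIR200CHG upstream: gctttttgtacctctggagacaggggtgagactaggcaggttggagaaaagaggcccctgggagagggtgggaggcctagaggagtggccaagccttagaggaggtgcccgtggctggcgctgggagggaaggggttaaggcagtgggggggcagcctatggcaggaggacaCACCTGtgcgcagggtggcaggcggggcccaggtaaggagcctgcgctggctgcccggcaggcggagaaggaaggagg

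The libraries held 2873558 to 4158762 counts. Levels are given as CPM, counts scaled to the size of the library, on 1 scale for all 24 libraries, after trimmed-mean (TMM) scaling, and the group mean is given with its SD over 3 replicates. Where a group had no count, 3 counts over its libraries were taken as the limit, which corresponded to 0.249 to 0.299 CPM and covers counting error only. Mitochondrial genes took 8.83% ± 0.21 of MDA-MB-231 counts under DMSO and 12.2% ± 1.05 under abemaciclib. In the other line they took 15.2% ± 0.65 and 23.8% ± 1.91. The epithelial keratins KRT7, KRT8, KRT18 and KRT19 were present in every library of both lines. Of 8 markers of leukocytes, endothelium and fibroblasts, CD3E and DCN were at 0 throughout, PTPRC, LUM and VWF had at most 4 counts over the 12 libraries of a line, and PECAM1 reached at most 2.40 CPM. CD68 (1.45 to 16.4 CPM, in MDA-MB-231) and COL1A1 (18.1 to 55.8 CPM in MDA-MB-453) were the most abundant of them.

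Under DMSO 7 of the 10 genes were called between the lines, as were 69.8% of all 12750 genes tested. The share is alike, so the count is not read as a result about these genes. VIM, which encodes the intermediate filament vimentin, FN1, which encodes fibronectin, and the transcription factors ZEB1, SNAI1 and SNAI2 were higher in MDA-MB-231. ESRP1 and EPCAM, which encodes an epithelial adhesion molecule, were higher in MDA-MB-453. CDH1, the gene for E-cadherin and the usual epithelial landmark, did not pass the test. CDH2, the gene for N-cadherin, and TWIST1 had too few counts to be tested.

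VIM read 1370, 1478 and 1678 CPM in the 3 MDA-MB-231 DMSO libraries and had no count in any of the 12 MDA-MB-453 libraries. The difference was at least 5241-fold, with 15399 counts set against the limit of 3 counts over the group. ZEB1 read 36.7, 36.9 and 46.0 CPM in MDA-MB-231 and 0 in all 3 MDA-MB-453 DMSO libraries. It was thus at least 138.5-fold higher in MDA-MB-231, and over all 12 MDA-MB-453 libraries it had 4 counts against 2070 in MDA-MB-231.

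No MDA-MB-231 library overlapped an MDA-MB-453 library in VIM or ZEB1. FN1 had 9, 36 and 14 counts in the MDA-MB-231 DMSO libraries and none in any MDA-MB-453 library, at least 20.1-fold. SNAI1, a zinc-finger repressor of CDH1, had 9 to 11 counts per MDA-MB-231 DMSO library and none in those of MDA-MB-453, at least 10.2-fold. SNAI2, its paralogue, had 6, 3 and 8 counts against none, at least 5.79-fold. The SNAI1 and SNAI2 levels in MDA-MB-231, 2.94 CPM ± 0.33 and 1.67 CPM ± 0.75, rested on few counts, and neither was at or above 3 counts over a group of MDA-MB-453 libraries except SNAI2 under fulvestrant (5 counts) and the combination (4 counts).

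On the epithelial side, ESRP1 read 111.5, 111.8 and 123.4 CPM in the MDA-MB-453 DMSO libraries and 0 in all 12 MDA-MB-231 libraries, at least 393-fold. EPCAM read 382.9, 395.3 and 404.5 CPM in MDA-MB-453. It had 8 counts over the DMSO libraries of the other line, of which 1 library had none, and the ratio was 503 (95% counting interval 255 to 1166). The lines did not overlap in either gene.

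CDH1 had 37, 31 and 37 counts in the MDA-MB-231 DMSO libraries (10.3 CPM ± 1.18) and 24, 45 and 35 in those of MDA-MB-453 (9.92 CPM ± 2.71). The groups overlapped, and the log2 fold change, MDA-MB-453 over MDA-MB-231, was -0.05 (SE 0.32, 95% interval -0.70 to 0.60, adjusted p = 0.899, edgeR). CDH2 had 6 counts over the MDA-MB-231 DMSO libraries and 22 over those of MDA-MB-453, where a single library held 14, a ratio of 3.59 (counting interval 1.41 to 10.8). TWIST1 had no count in any of the 24 libraries, which allows 0.249 to 0.299 CPM in a group.

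The 7 called genes, 2 higher and 5 lower in MDA-MB-453, are to be read against 69.8% of 12750 tested genes called between the lines, 34.3% higher and 35.6% lower in MDA-MB-453. Their adjusted p-values ran from 8.57e-38 for VIM to 0.00113 for SNAI2 (edgeR quasi-likelihood test over all genes, Benjamini-Hochberg). Each of the 7 passed the filter on low counts through libraries of 1 line alone, the line in which it was higher, and was thus bound to differ between the lines, so neither the count nor the p-values are support beyond the levels given above. SNAI2 passed only through its abemaciclib and combination libraries. In a bulk sample, fewer cells that express a gene and less RNA per cell cannot be told apart.

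**Figure D1:**
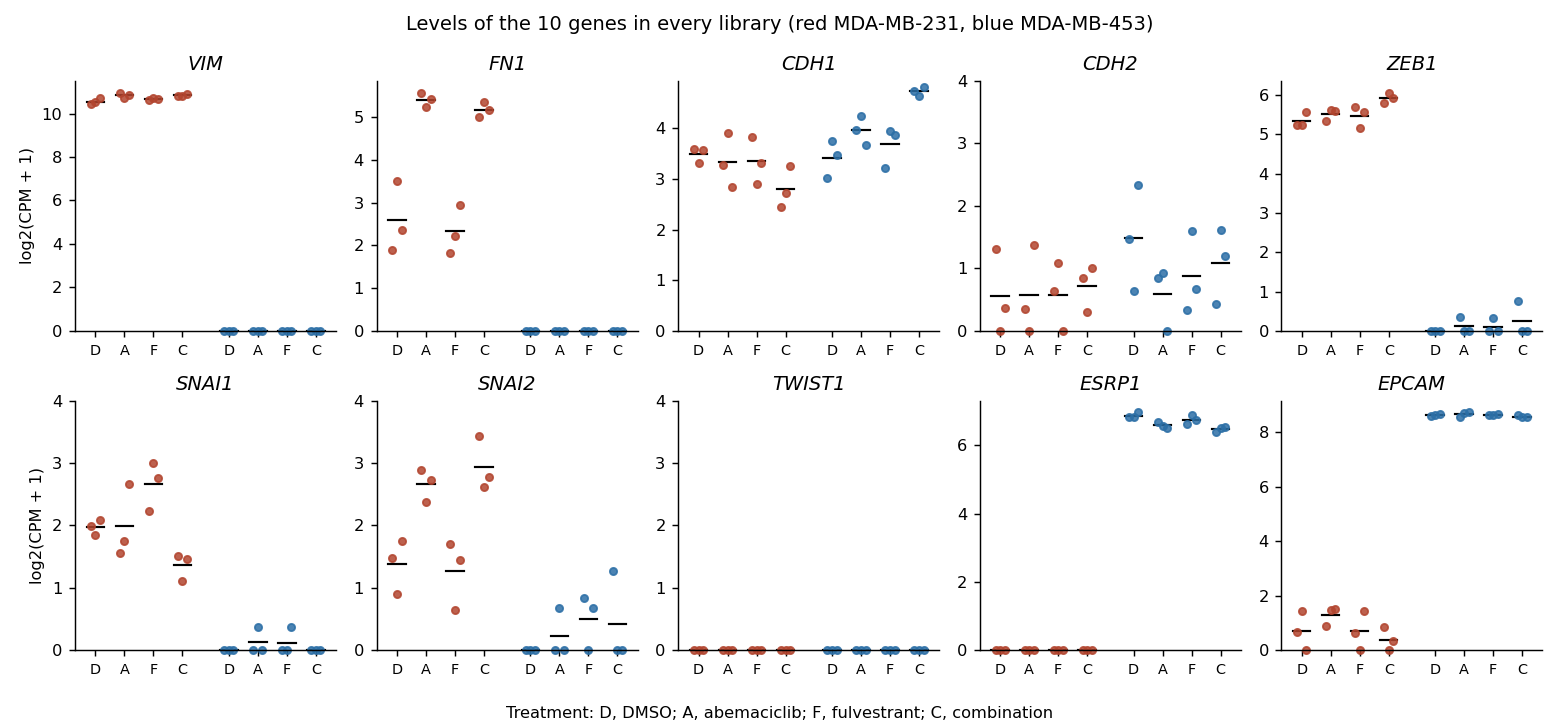
Levels of the 10 genes as log2(CPM + 1) (vertical axis) in every library, by treatment along the horizontal axis; points are the 3 replicates, bars their mean, red MDA-MB-231 and blue MDA-MB-453. VIM and FN1 have no count in any MDA-MB-453 library and ESRP1 none in MDA-MB-231, whereas the CDH1 points of the lines overlap under DMSO and separate under the combination.

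MIR200CHG followed ESRP1 and EPCAM rather than ZEB1. It had no count in any of the 12 MDA-MB-231 libraries and 99 counts over the 12 of MDA-MB-453, where every library had at least 2. Under DMSO its 16 counts in MDA-MB-453 put it at least 5.22-fold higher there (adjusted p = 0.00198, edgeR). That p-value is no support beyond the counts. The DMSO libraries of MDA-MB-453 read at most 2.03 CPM, under the filter's minimum of 2.84 CPM over both lines and 2.75 CPM within MDA-MB-453. MIR200CHG could thus enter the fits only through drug-treated MDA-MB-453 libraries and was bound to differ between the lines. Under abemaciclib it read 3.37 CPM ± 1.36 in MDA-MB-453 against 1.55 CPM ± 0.63 under DMSO, a difference that did not pass the test (log2 fold change 1.11, SE 0.69, adjusted p = 0.225, edgeR). ZEB2, the paralogue of ZEB1, had 72 counts in the MDA-MB-231 DMSO libraries and none in any MDA-MB-453 library, at least 24.5-fold. ESRP2, the paralogue of ESRP1, read 61.1 CPM ± 7.01 in MDA-MB-453 and had 2 counts in MDA-MB-231, which gave 311-fold (counting interval 85.7 to 2573).

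The counts for wider lists of related genes stand beside 69.8% of all genes called between the lines, 34.3% higher and 35.6% lower in MDA-MB-453, and nothing particular to a list is read from them. Any tested gene without a count in a whole line had passed the filter on low counts only through the other line. Such a gene was bound to differ between the lines. Of 42 effectors of the mesenchymal state, 35 were tested between the DMSO groups, of which 29 were lower and 3 higher in MDA-MB-453. Examples were CAVIN1, a component of caveolae, the receptor tyrosine kinase AXL and the ectonucleotidase NT5E, each without a count in MDA-MB-453. The MDA-MB-231 levels were 1394 CPM ± 38.2, 583.8 CPM ± 26.8 and 272.3 CPM ± 12.7. The 3 that went the other way were ITGAV, THBS1 and TPM1. Of 38 epithelial junction and surface genes, 35 were tested and 31 were higher in MDA-MB-453, among them S100A14 (1090.5 CPM ± 14.9), MAL2 (628.1 CPM ± 18.4) and ERBB3 (171.1 CPM ± 17.5), each at 0 in MDA-MB-231. The desmosomal genes DSP and DSG2 were lower in MDA-MB-453, at 7.10 CPM ± 1.64 against 49.8 CPM ± 9.43 and at 26.6 CPM ± 7.87 against 40.0 CPM ± 4.09.

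The remaining lists are described in the same way. Of 19 epithelial regulators, 17 were tested and 15 were higher in MDA-MB-453, among them the transcription factors EHF (223.4 CPM ± 8.17) and GRHL2 (46.1 CPM ± 4.78), both at 0 in MDA-MB-231. Of 18 other transcription factors linked to the mesenchymal switch, 12 were tested, with 8 lower and 4 higher in MDA-MB-453. HMGA2 (83.0 CPM ± 7.13) and ETS1 (82.4 CPM ± 4.92) were found in MDA-MB-231 and had no count in the other line, whereas SOX4 read 258.5 CPM ± 11.6 in MDA-MB-453 against 51.5 CPM ± 2.13. Of 14 other cadherins and catenins, 7 were tested, with 4 lower and 2 higher. CDH4, the gene for R-cadherin, read 208.5 CPM ± 9.23 in MDA-MB-231 and had no count in the other line. All 25 genes of the TGF-β pathway were tested, with 12 lower and 9 higher. The ligand TGFB2 and the receptor TGFBR2 were lower in MDA-MB-453 (0.10 CPM ± 0.17 against 11.5 CPM ± 2.13, and 1.46 CPM ± 1.16 against 26.9 CPM ± 2.60), and the ligand TGFB3 was higher (59.3 CPM ± 4.42 against 0.10 CPM ± 0.17).

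**Figure D2:**
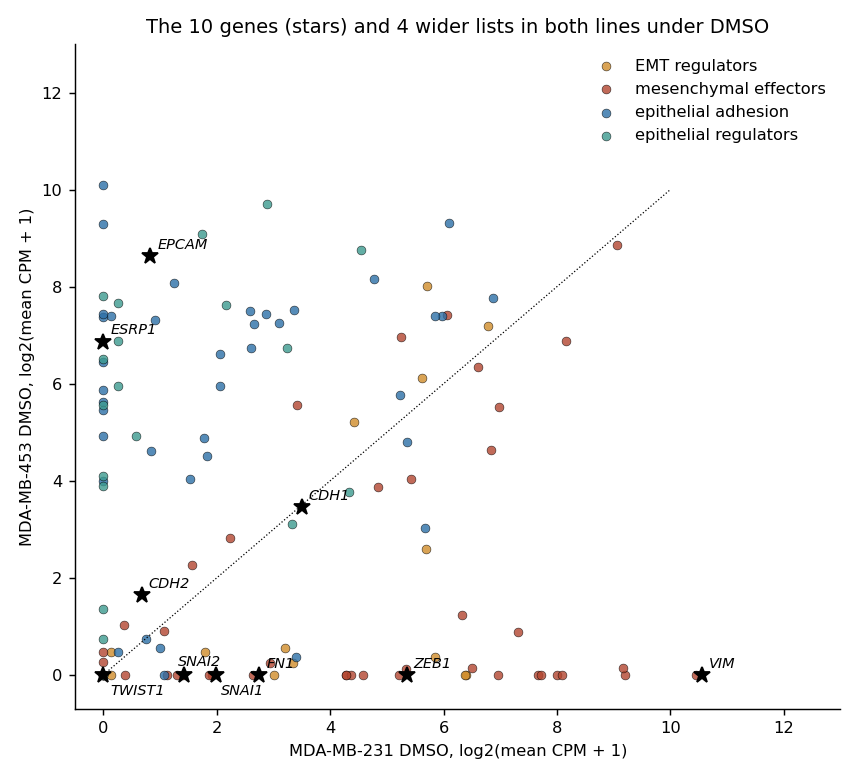
Mean level under DMSO in MDA-MB-231 (horizontal axis) and MDA-MB-453 (vertical axis), both as log2(mean CPM + 1), of the 10 genes (stars) and of the genes in 4 wider lists (coloured circles); the dotted line marks equal levels. CDH1 lies on the line, VIM and ZEB1 lie on the horizontal axis with many mesenchymal effectors, and EPCAM and ESRP1 lie at the left with many epithelial genes.

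In MDA-MB-231, FN1 and VIM rose under abemaciclib, FN1 by more than VIM, and no tested member fell. SNAI2 was also called higher, but it had passed the filter on low counts only through libraries with abemaciclib. With SNAI2, 3 of the 6 genes that could be tested were called. The background was 33.7% of 11314 tested genes called, 16.9% higher and 16.9% lower. ZEB1, SNAI1 and CDH1 did not pass the test, and CDH2, TWIST1, ESRP1 and EPCAM were below the filter on low counts.

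FN1 read 2.69, 10.4 and 4.13 CPM under DMSO and 46.4, 36.9 and 41.9 CPM under abemaciclib, in counts 9, 36 and 14 against 166, 124 and 157. Every treated library lay above every control, and replicate 2 was the highest of the controls. The log2 fold change was 2.85 (SE 0.29, adjusted p = 1.2e-10, edgeR) and was 3.60 without that control library. The change was called under each of the 12 alternatives computed. FN1 lies on the minus strand at chr2:215360440-215436073. The 250 bases before its RefSeq start, chr2:215436069-215436318, are shown because this gene changed most, with the cyclic AMP response element TGACGTCA in capitals. That palindrome is in 1.65% of the 35116 windows, and the E-box CAGGTG or CACCTG is not among the letters of this window.
FN1 upstream: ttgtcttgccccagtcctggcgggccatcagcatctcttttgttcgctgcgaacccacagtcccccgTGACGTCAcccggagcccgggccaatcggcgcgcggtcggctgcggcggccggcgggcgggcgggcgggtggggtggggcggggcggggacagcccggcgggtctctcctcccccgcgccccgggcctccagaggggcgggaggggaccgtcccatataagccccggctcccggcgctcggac

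SNAI2 had 6, 3 and 8 counts under DMSO and 23, 14 and 21 under abemaciclib. The groups did not overlap, and the log2 fold change was 1.68 (SE 0.58, adjusted p = 0.0208, edgeR). Given how it had passed the filter, it was bound to differ between these libraries and the controls. Leaving out DMSO replicate 2 or abemaciclib replicate 1 ended the call, with an adjusted p of at most 0.0993. VIM read 1370, 1478 and 1678 CPM under DMSO and 1977, 1692 and 1855 CPM under abemaciclib. The lowest treated library exceeded the highest control by little, and the log2 fold change of 0.29 (SE 0.08, adjusted p = 0.00384, edgeR) was not called without DMSO replicate 1 (adjusted p = 0.0561). The annotation places VIM at chr10:17228241-17237593 on the plus strand, and the antisense gene VIM-AS1 shares exon bases with it. Since the strand setting used for counting is not given in the sources used here, reads of the 2 genes cannot be told apart where they overlap.

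The 3 other tested genes moved within their spread. ZEB1 read 36.7, 36.9 and 46.0 CPM under DMSO and 39.4, 48.2 and 47.3 CPM under abemaciclib, with overlapping groups (log2 fold change 0.17, SE 0.17, adjusted p = 0.449, edgeR). SNAI1 had 9 to 11 counts per control library and 7, 8 and 20 under abemaciclib (log2 fold change 0.14, 95% interval -1.02 to 1.30, adjusted p = 0.876, edgeR). CDH1 had 31 to 37 counts per control library and 31, 47 and 23 under abemaciclib (log2 fold change -0.11, 95% interval -0.82 to 0.60, adjusted p = 0.848, edgeR). EPCAM had 8 counts over the 3 controls and 16 over the 3 treated libraries, and ESRP1 stayed at 0.

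The mitochondrial share rose with abemaciclib in these libraries, as given above. With library totals that left out mitochondrial genes, the log2 fold changes of FN1, SNAI2 and VIM were 2.91, 1.73 and 0.34, and all 3 remained called. CD68 also rose with abemaciclib in MDA-MB-231, from 3.91 CPM ± 0.38 to 10.3 CPM ± 5.28 (adjusted p = 0.0236, edgeR), while the sum of the 8 markers of other cells ranged from 8.06 to 12.1 CPM under DMSO and from 10.1 to 18.7 CPM under abemaciclib. Their part in the result was not tested.

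None of the 6 genes was called under fulvestrant alone in MDA-MB-231. There 0.00% of the 11314 genes were called by edgeR and 0 by DESeq2, and 799 had an unadjusted p under 0.05 by edgeR. The smallest unadjusted p among the 6 genes was 0.114, for SNAI1, which had 13, 25 and 20 counts against 10, 9 and 11 under DMSO. The SNAI1 groups did not overlap, but the log2 fold change of 0.89 had a 95% interval of -0.22 to 2.01 (adjusted p = 0.765, edgeR). FN1 read 2.54, 3.64 and 6.67 CPM and overlapped the controls.

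With both drugs, FN1, VIM and ZEB1 rose against DMSO in MDA-MB-231, and SNAI2, bound to differ by the filter, was called higher as well. These were 4 of the 6 genes, where 35.4% of genes were called, 17.0% higher and 18.3% lower. FN1 read 31.1, 40.2 and 34.7 CPM (log2 fold change 2.61, SE 0.29, adjusted p = 9.76e-10, edgeR), and its log2 fold change was 3.36 without DMSO replicate 2. SNAI2 had 37, 22 and 23 counts (2.02 on the log2 scale, SE 0.57, adjusted p = 0.00424, edgeR), again above every control. VIM read 1768, 1815 and 1889 CPM (0.28 on the log2 scale, adjusted p = 0.00556, edgeR), a call lost without DMSO replicate 1 (adjusted p = 0.0711).

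ZEB1 was the fourth. It read 54.3, 65.2 and 59.2 CPM under the combination, above all 9 other MDA-MB-231 libraries, of which the highest reached 50.8 CPM. Its log2 fold change against DMSO was 0.58 (SE 0.16, adjusted p = 0.00384, edgeR) and was called under each of the 12 alternatives. Against abemaciclib alone ZEB1 differed by 0.41 on the log2 scale, which was not called (SE 0.16, unadjusted p = 0.0139, adjusted p = 0.36, edgeR). In that comparison 0.0265% of genes, 3 in number, were called, 0.00884% higher and 0.0177% lower, and 0 of the 6 genes were (1148 genes had an unadjusted p under 0.05 by edgeR, and DESeq2 called 75 genes and 0 of these).

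The 2 remaining genes read lower under the combination without passing the test. CDH1 had 17, 24 and 34 counts, below the controls on the CPM scale (6.22 CPM ± 2.13 against 10.3 CPM ± 1.18; log2 fold change -0.72, 95% interval -1.45 to 0.01, adjusted p = 0.12, edgeR). SNAI1 had 7, 5 and 7 counts (1.59 CPM ± 0.38 against 2.94 CPM ± 0.33; log2 fold change -0.88, adjusted p = 0.283, edgeR). Against fulvestrant alone, 36.1% of genes were called, 17.6% higher and 18.5% lower. SNAI1 was lower by 1.77 on the log2 scale (SE 0.58, adjusted p = 0.015, edgeR), while FN1 (3.04) and ZEB1 (0.45) were higher. SNAI2 (2.16) was called higher too, but it had passed the filter only through libraries with abemaciclib and was bound to differ. For SNAI1, 3 fulvestrant libraries reached the filter's minimum and 0 of the combination did, which favoured a difference in this direction. The calls of SNAI1 and ZEB1 were lost without fulvestrant replicate 2 and without combination replicate 2, and that of ZEB1 also without combination replicate 3. The interaction of the drugs, which is the part of the combination effect not given by adding both single effects, was called for none of the 6 genes (0.124% of genes called, 0.106% higher and 0.0177% lower, 1298 with an unadjusted p under 0.05, 127 called by DESeq2). SNAI1 came nearest, at -1.91 (SE 0.82, unadjusted p = 0.0246, adjusted p = 0.345, edgeR).

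**Figure D3:**
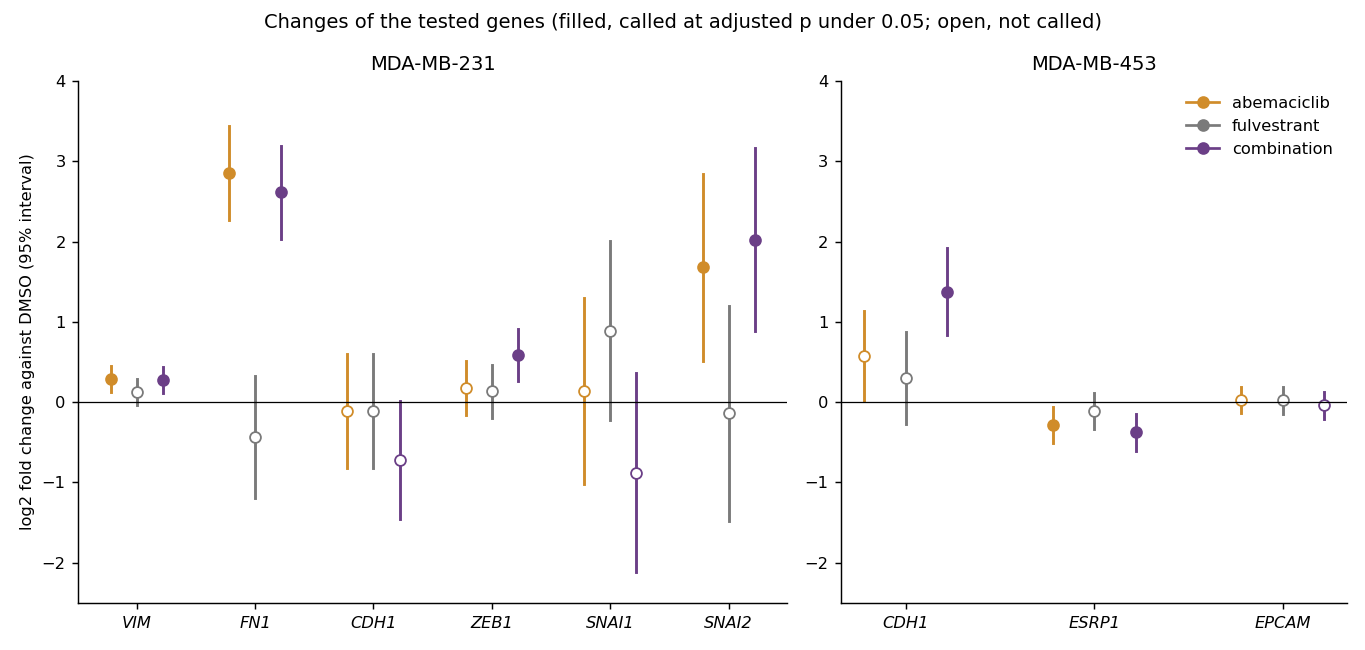
Log2 fold change against DMSO (vertical axis) with its 95% interval for each tested gene (horizontal axis) under abemaciclib, fulvestrant and the combination, in MDA-MB-231 (left) and MDA-MB-453 (right), from 3 libraries a group; filled points were called at an adjusted p under 0.05. FN1 rises in MDA-MB-231 in both arms with abemaciclib. SNAI2 is called higher in these arms too, but it rests on few counts and passed the filter on low counts only through them. CDH1 rises in MDA-MB-453 under the combination (1.38) but not in MDA-MB-231 (-0.72, not called).

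In MDA-MB-453 the combination raised CDH1. The gene read 7.12, 12.5 and 10.1 CPM under DMSO and 25.6, 24.0 and 27.2 CPM with both drugs, in counts 24, 45 and 35 against 73, 82 and 105. All 3 libraries of the combination lay above the other 9 libraries of the line, the highest of which read 18.1 CPM. The log2 fold change was 1.38 (SE 0.27, adjusted p = 5.55e-05, edgeR) on a background of 37.6% of 11080 genes called, 17.6% higher and 20.0% lower, and it was called under each of the 12 alternatives. An annotated gene on the other strand, ENSG00000260798, shares exon bases with CDH1, as ZEB1-AS1 does with ZEB1.

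The order of the 4 CDH1 means in MDA-MB-453 was DMSO (9.92 CPM ± 2.71), fulvestrant (12.2 CPM ± 3.35), abemaciclib (14.8 CPM ± 3.18) and the combination (25.6 CPM ± 1.61). The first 3 overlapped each other. Abemaciclib alone gave a log2 fold change of 0.57 (SE 0.28, unadjusted p = 0.0467, adjusted p = 0.109, edgeR) and fulvestrant alone 0.30 (SE 0.28, adjusted p = 0.714, edgeR). The combination exceeded fulvestrant alone by 1.07 (SE 0.26, adjusted p = 0.001, edgeR; 36.6% of genes called, 17.2% higher and 19.4% lower). It exceeded abemaciclib alone by 0.80 (SE 0.26), which was not called in the fit over the line (adjusted p = 0.0873) and was called when only the 2 groups were fitted (adjusted p = 0.0428). In the former fit 2.46% of genes were called, 1.25% higher and 1.21% lower. The interaction was 0.50 (SE 0.39, adjusted p = 0.574, edgeR), with 3.80% of genes called, 1.13% higher and 2.67% lower.

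The combination effect on CDH1 differed between the lines. Given as MDA-MB-453 less MDA-MB-231, the difference was 2.09 on the log2 scale (SE 0.45, 95% interval 1.18 to 2.99, adjusted p = 0.000464, edgeR over 24 libraries), where 17.7% of 12750 genes were called, 6.16% higher and 11.6% lower. This comparison was added after the values had been seen. For abemaciclib alone the difference was 0.69 (SE 0.45, adjusted p = 0.315, edgeR; 20.7% of genes called, 7.72% higher and 13.0% lower). CDH1 was the only member that passed the filter on low counts within each line.

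ESRP1 and EPCAM stayed high in MDA-MB-453 in all 4 groups. EPCAM ranged from 373.2 to 421.9 CPM over the 12 libraries, and its log2 fold changes against DMSO were 0.03 under abemaciclib, 0.02 under fulvestrant and -0.04 under the combination, with 95% intervals that together ran from -0.21 to 0.19. ESRP1 read 101.7, 93.4 and 90.4 CPM under abemaciclib, each below the lowest control of 111.5 CPM. Its log2 fold change of -0.28 (SE 0.11, adjusted p = 0.045, edgeR) was called on a background of 36.0% of genes, 16.6% higher and 19.4% lower, but in only 1 of the 12 alternatives, with adjusted p-values up to 0.176. Under the combination ESRP1 read 82.8, 90.2 and 91.6 CPM, again below every control (log2 fold change -0.38, SE 0.11, adjusted p = 0.00742, edgeR; 20.0% of genes called lower). That call was lost with library totals that left out mitochondrial genes (-0.26, adjusted p = 0.0618), a setting under which the median of all genes stood at 0.12. Mitochondrial genes took 21.2% ± 0.38 of counts under the combination. The summed level of the 8 markers of other cells, nearly all of it COL1A1, ranged from 34.5 to 46.0 CPM under DMSO, from 18.8 to 22.0 CPM under abemaciclib and from 20.3 to 31.1 CPM under the combination. Their part in the result was not tested.

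None of the 3 tested genes was called under fulvestrant alone in MDA-MB-453. Of all genes tested there, 1.41% were called by edgeR, 1.01% higher and 0.397% lower. By edgeR 1504 had an unadjusted p under 0.05, and DESeq2 called 334. The mesenchymal genes remained at or near 0 in this line under every treatment. VIM, FN1 and TWIST1 had no count in 12 libraries, SNAI1 had 2 counts, ZEB1 had 4 and SNAI2 had 11. CDH2 had 22 counts over the DMSO libraries, 6 under abemaciclib, 11 under fulvestrant and 13 under the combination, with intervals from 0.22 to 3.20 CPM over these groups, and was not tested.

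Wider lists of related genes are described by their counts, to be read against the share of all genes called. In MDA-MB-231 under abemaciclib, where 16.9% of all genes were called higher and 16.9% lower, 18 of the 35 tested mesenchymal effectors rose and 2 fell, with a median log2 fold change of 0.46 against -0.00053 over all genes tested. The largest rises were in CDH11, a mesenchymal cadherin (2.62 CPM ± 2.17 to 11.6 CPM ± 4.58), and in the matrix genes TNC (3.70 CPM ± 2.37 to 14.4 CPM ± 6.32) and FBN1 (6.65 CPM ± 1.13 to 24.4 CPM ± 4.18). QKI was among those that fell, with overlapping groups.

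Of 38 epithelial junction genes, 20 were tested in the same libraries, of which 11 rose, 9 were not called and 0 fell. Their median was 1.04, beside 16.9% of all genes called higher. In this and the mesenchymal list some tested genes, CDH11 among them, averaged under the filter's minimum of 2.86 CPM under DMSO. They passed it with the help of other libraries, which favours rises over falls in these counts and medians. JUP, the gene for plakoglobin, read 4.99 CPM ± 0.43 under DMSO and 22.1 CPM ± 0.07 under abemaciclib. The junction receptors CXADR (5.09 CPM ± 0.09 to 19.0 CPM ± 5.31) and F11R (5.28 CPM ± 1.47 to 19.3 CPM ± 1.30) rose as well. Of the 4 keratins, KRT19 rose from 84.5 CPM ± 13.8 to 223.6 CPM ± 3.37, KRT18 fell from 302.0 CPM ± 4.10 to 239.9 CPM ± 23.7, and KRT7 and KRT8 were not called. Genes of both lists were thus among those called higher in MDA-MB-231, while CDH1, EPCAM and ESRP1 were not called or not tested.

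Among 23 tested genes of the TGF-β pathway in MDA-MB-231, 8 rose and 2 fell. The counts in this paragraph stand beside 33.7% of all genes called, 16.9% in each direction. The latent TGF-β binding proteins LTBP1 (6.15 CPM ± 2.26 to 36.5 CPM ± 4.05), LTBP2 and LTBP3 rose most, and the target genes ID1 (149.6 CPM ± 10.2 to 89.6 CPM ± 6.94) and ID3 fell. Of 12 other transcription factors tested, SOX4, SOX9 and HMGA2 rose and ETS1, FOXC1 and TCF3 fell. Of 7 epithelial regulators, TFAP2C alone was called (8.45 CPM ± 3.27 to 18.6 CPM ± 2.31). Of 7 cadherins and catenins, CTNNA1 rose and CDH4 fell (208.5 CPM ± 9.23 to 117.4 CPM ± 18.2). CDH3, named after its values were seen, was also called higher, at 1.88 CPM ± 0.60 against 0.10 CPM ± 0.17, but its DMSO libraries lay under the filter's minimum of 2.86 CPM, so it could enter the test only through drug-treated libraries.

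In MDA-MB-453 under abemaciclib, where 36.0% of all genes were called, 16.6% higher and 19.4% lower, 13 of 33 tested epithelial junction genes rose and 1 fell, with a median of 0.31 against -0.0019 over all genes. PRSS8 (48.3 CPM ± 8.57 to 101.7 CPM ± 12.3), MARVELD3 (57.7 CPM ± 2.80 to 118.0 CPM ± 4.00) and CD24 (43.2 CPM ± 8.91 to 79.4 CPM ± 14.8) rose most, and MAL2 fell. Of 17 epithelial regulators, 4 rose, among them GATA3 (827.6 CPM ± 35.5 to 1055 CPM ± 107), and 2 fell, ESRP2 and TRPS1. ESRP2, the paralogue of ESRP1, read 61.1 CPM ± 7.01 under DMSO and 44.9 CPM ± 2.36 under abemaciclib. Of 12 mesenchymal effectors, 5 rose, with ITGB1, TIMP1 and ITGA2 first, and LGALS1, THBS1 and TNC fell. Among the transcription factors of the mesenchymal switch, SOX4, SOX9 and RUNX1 rose and TCF3 fell. PMEPA1, SMAD7 and ID2 rose and SMAD6, LTBP1 and ID1 fell among 19 genes of the TGF-β pathway. Of these, TNC, SMAD7 and LTBP1 lay under 10 CPM and were named after their values were seen. Of 5 cadherins and catenins, VCL rose and CTNNB1 fell.

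Some of these genes moved alike in the lines. SOX4 went from 51.5 CPM ± 2.13 to 139.9 CPM ± 4.26 in MDA-MB-231. In the other line it went from 258.5 CPM ± 11.6 to 689.0 CPM ± 67.1. These were log2 fold changes of 1.44 and 1.41 that differed by -0.03 (SE 0.14, adjusted p = 1, edgeR). ID1 fell by 0.74 and by 0.72, which differed by 0.02 (SE 0.18, adjusted p = 1, edgeR).

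**Figure D4:**
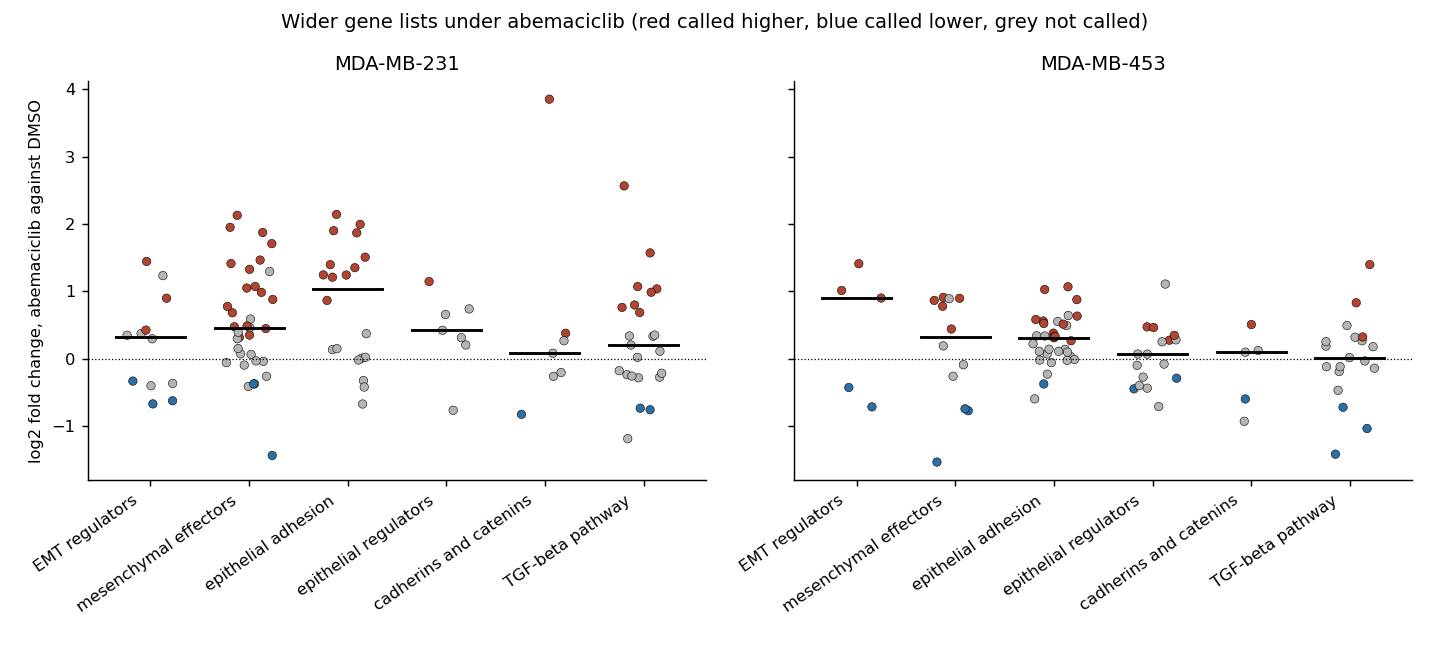
Log2 fold change of abemaciclib against DMSO (vertical axis) of the tested genes in 6 wider lists (horizontal axis) in MDA-MB-231 (left) and MDA-MB-453 (right); each point is 1 gene, bars are list medians, red and blue points were called higher and lower at an adjusted p under 0.05 and grey points were not called. In MDA-MB-231 the medians of mesenchymal effectors (0.46) and epithelial adhesion genes (1.04) both lie above 0.

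The genes whose pattern over the 12 libraries of a line was most like that of a member were found by Pearson's r of log2(CPM + 1), as a description. In MDA-MB-231, out of 7978 other genes, they were OCIAD2 (0.938) and KDM4A (0.935) for VIM, ACAA1 (0.984) and AGR2 (0.980) for FN1, and VWA8 (0.898) and RBM41 (0.895) for ZEB1. In MDA-MB-453, out of 7992, they were COX19 (0.927) and PCID2 (0.922) for CDH1, ARL3 (0.947) and B3GALNT1 (0.941) for ESRP1, and PCM1 (0.897) and TEX264 (0.846) for EPCAM. The 12 libraries share the 4 treatments, so any gene that follows the treatment can score high.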

How the data were processed

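The authors made QuantSeq forward libraries and deposited raw counts per gene from featureCounts on a GENCODE annotation, after BBDuk trimming and STAR alignment (hg38). Strand setting and duplicate removal are not given in the sources used here. One row without a gene name held 0 counts. Genes were filtered with filterByExpr and tested with edgeR 4.0.16 (R 4.3.3, TMM, quasi-likelihood), with the 12 libraries of a line in each fit and all 24 for comparisons between lines. Calls were 2-sided, at an adjusted p under 0.05 (Benjamini-Hochberg) over every gene tested. DESeq2 1.42.0, other scalings, no filter, fewer groups, a replicate block and left-out libraries were alternatives. The study describes 3 independent biological replicates per group, from an experiment performed once. No pair of replicates was a copy of another (chi-square per degree of freedom 2.59 to 9.67 over 24 pairs). Totals of 2873558 to 4158762 counts limit low genes: counting intervals are 95%, exact, and cover counting error only.

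The 10 genes and the wider lists were chosen with earlier results of these data known. From each wider list the text names, for abemaciclib against DMSO and for the lines under DMSO, up to 3 called genes with the largest rise and up to 3 with the largest fall at 10 CPM or more in the higher group. Some genes that this rule takes are not reported here. Likeness was searched for members at 10 CPM or more. The scripts were tested on simulated data. Promoter sequences were matched for 4 of the 10 genes, VIM, FN1, ZEB1 and CDH2.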

Additional observations from a re-analysis of the deposited data

Results flagged for a closer look

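The combination effect on CDH1 differed between the lines, by a test of the difference itself in a fit of all 24 libraries. The log2 difference, MDA-MB-453 minus MDA-MB-231, was 2.09 (SE 0.45, adjusted p = 0.000464, edgeR), from a rise of 1.38 in MDA-MB-453 and a value of -0.72 in MDA-MB-231 that was not called. It ranged from 1.85 to 2.33 over 17 alternatives and was called in each of them. The comparison was added after the values had been seen, so its p-value is not that of a planned test. In it 17.7% of 12750 genes were called, 6.16% higher and 11.6% lower.

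Of 32 genes that the naming rule took from the wider lists for abemaciclib and that were tested in both lines, 12 differed between the lines in their abemaciclib effect by the same kind of test. The genes had been chosen as called with a large change in at least 1 of the lines, so this count is not compared with that over all genes. Among matrix and TGF-β genes, the log2 difference, MDA-MB-453 minus MDA-MB-231, was -3.59 for LTBP1, -3.47 for TNC, -2.23 for LGALS1 and -1.42 for THBS1, all 4 of which rose in MDA-MB-231 and fell in MDA-MB-453. It was 0.65 for ID3, which was called lower in MDA-MB-231 only. Among junction genes it was -1.82 for JUP, -1.63 for CXADR and -1.75 for F11R. JUP and CXADR were called higher in both lines, and F11R in MDA-MB-231 only. The keratins KRT19 and KRT8 differed by -1.27 and 0.58. The transcription factors TFAP2C and TRPS1 differed by -1.41 and -0.71.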

How the results depend on the processing

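Of the alternatives, 754 values of log2 fold changes and 183 counts of called genes kept their direction and call, or stayed within 1.5 times. The count called for abemaciclib in MDA-MB-453 went from 1 to 0 with the DESeq2 test, DESeq2 size factors, totals without mitochondrial genes, no filter, only the groups compared and the replicate block, and ranged from 0 to 1 with left-out libraries. For the combination in that line it went from 2 to 1 without mitochondrial genes in the totals. For the combination against abemaciclib it went from 0 to 1 with only the groups compared. For the combination against fulvestrant it ranged from 1 to 2 with left-out libraries, with 2 without fulvestrant replicate 1, and in MDA-MB-231 from 2 to 4. Between the lines under DMSO it went from 7 to 4 with only the groups compared, where FN1, SNAI1 and SNAI2 were not tested. Low counts limit SNAI1, SNAI2, CDH2 and TWIST1.

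Signs turned only for values that were not called. With totals without mitochondrial genes, VIM for the combination against abemaciclib was at 0.0171, and EPCAM in MDA-MB-453 at 0.0712 for the combination against DMSO and 0.0055 against fulvestrant. VIM was at 0.0023 with no filter and 0.0039 with only the groups compared. The interaction of ESRP1 in MDA-MB-453 was -0.00037 with the DESeq2 test and -0.0230 with no filter. With left-out libraries, the lowest and highest log2 values were as follows. CDH1 ranged from -0.47 to 0.14 for abemaciclib and from -0.42 to 0.11 for fulvestrant in MDA-MB-231, and from -0.30 to 0.13 between the lines. SNAI1 ranged from -0.43 to 0.40 for abemaciclib. FN1 ranged from -0.89 to 0.32 and SNAI2 from -0.53 to 0.26 for fulvestrant, and the interaction of FN1 from -0.56 to 0.66. VIM ranged from -0.0718 to 0.0415 for the combination against abemaciclib, EPCAM from -0.0125 to 0.0831 for abemaciclib and the interaction of ESRP1 from -0.0471 to 0.0936 in MDA-MB-453. The cause was not tested.

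Totals without mitochondrial genes moved the share of higher calls among all genes from 48.2% to 58.4% (combination against DMSO) and from 48.8% to 58.8% (against fulvestrant) in MDA-MB-231, and from 46.8% to 58.9% (combination), 71.8% to 89.4% (fulvestrant) and 50.9% to 67.9% (combination against abemaciclib) in MDA-MB-453. Same-numbered replicates did not deviate together: correlations lay between -0.272 and 0.069 in MDA-MB-231 and between -0.220 and 0.089 in the other line, with 0 of 18 over 0.1 in each, so the replicate numbers were not treated as pairs. With a replicate block, the calls among the 10 genes remained at 3 and 4 for abemaciclib and the combination in MDA-MB-231 and at 2 for the combination in MDA-MB-453.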
